A study of Mus musculus with 8 samples.

Results

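The T cell receptor alpha-beta variable genes were taken as all annotated genes whose symbol starts with Trav or Trbv. They number 163 of the 32285 genes in the count tables, 128 Trav genes and 35 Trbv genes, of which 33 are annotated as pseudogenes. All Trav genes lie on chromosome 14 and all Trbv genes on chromosome 6 of the mm10 genome. In each T cell, the Trav gene and the Trbv gene with the most transcripts was taken as the V gene of that cell. Usage is the share of cells of a gate that were assigned a given V gene, out of the cells assigned any gene of the same prefix.

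Immune cells positive for CD45.2, an antigen that marks nearly all blood-derived cells and microglia, were sorted from the brains of perfused mice and profiled by droplet-based single-cell RNA sequencing from the 5′ end of transcripts. C57BL/6J mice (WT) were compared with APPNL-G-F mice (called App here), a line whose own App gene was edited in place to encode a human amyloid-beta peptide and 3 disease mutations, called Swedish, Arctic and Iberian, so that no added promoter drives it. Each genotype had a control group on water, an acute colitis group given 2% dextran sulfate sodium (DSS) in 1 cycle of 7 days, a chronic colitis group given 3 cycles of 2% DSS for 5 days each, and a food allergy group sensitized to and then fed ovalbumin. All mice had also received an intravenous antibody against CD45 before perfusion, and the cells that it labelled cannot be told from the counts. The labels give an age of 16 weeks in all groups, and the methods state a slightly younger age and both sexes. The data hold 8 libraries, 1 for each genotype and treatment, with no repeat of any of them. Each library pooled cells marked with up to 4 hashtag antibodies, numbered 4 to 7, and the mouse behind each number is not given in the sources used here. P-values over libraries measure only the spread between these libraries.

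A T cell receptor is a pair of chains, and in most T cells these are an alpha and a beta chain. In the thymus each developing T cell joins 1 V segment to a joining segment, with a diversity segment in the beta chain as well, so the V gene transcribed in a mature T cell is fixed in its descendants. The V segment encodes the part of the receptor that lies over the MHC molecule and the ends of its peptide, and CD4 and CD8 T cells read peptides on MHC class II and class I respectively. Cells of a single clone share their rearranged V genes, but a cell can hold several Trav genes, and only that with the most transcripts is assigned here. Cells of a clone can thus be assigned different pairs. Cells that share both V genes need not be a clone either, since the junctions are not part of this measurement. The V(D)J reads that hold the junctions were not analysed here.

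The V genes on which the comparisons turn are shown by the beginning of their coding sequence, near the end that a 5′ library reads. Within each set, capitals mark the bases that differ from the first member of the set in a global alignment, and lower case the bases that are shared. The sets are Trbv12-1 and Trbv12-2, and Trav8n-2 and Trav8d-2, which were all more abundant in CD8 than in CD4 T cells, the 3 Trbv13 genes, of which Trbv13-2 was the most used V gene of CD4 T cells, the 3 closely related Trav16 genes, and Trav7-5. Each run is the first 120 bases of the coding sequence of the GENCODE vM21 transcript on mm10, joined across the intron between the leader and the V exon.
Trbv12-1: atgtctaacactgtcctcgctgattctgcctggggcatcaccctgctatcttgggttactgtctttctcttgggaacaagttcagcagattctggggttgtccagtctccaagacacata
Trbv12-2: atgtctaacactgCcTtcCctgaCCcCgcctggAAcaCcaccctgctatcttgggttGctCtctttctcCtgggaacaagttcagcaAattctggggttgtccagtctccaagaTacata
Trbv13-2: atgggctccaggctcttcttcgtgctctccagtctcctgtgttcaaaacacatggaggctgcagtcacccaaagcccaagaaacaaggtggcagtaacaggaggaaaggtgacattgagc
Trbv13-1: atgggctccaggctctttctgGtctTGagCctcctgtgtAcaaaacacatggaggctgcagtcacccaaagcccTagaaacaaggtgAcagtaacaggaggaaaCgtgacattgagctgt
Trbv13-3: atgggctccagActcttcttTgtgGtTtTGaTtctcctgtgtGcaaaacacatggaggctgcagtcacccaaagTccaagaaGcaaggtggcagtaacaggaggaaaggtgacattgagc
Trav8n-2: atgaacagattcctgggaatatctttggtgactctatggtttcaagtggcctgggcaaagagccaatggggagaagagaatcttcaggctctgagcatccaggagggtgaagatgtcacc
Trav8d-2: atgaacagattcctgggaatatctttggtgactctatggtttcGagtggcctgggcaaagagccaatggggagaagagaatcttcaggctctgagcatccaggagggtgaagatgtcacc
Trav16d-dv11: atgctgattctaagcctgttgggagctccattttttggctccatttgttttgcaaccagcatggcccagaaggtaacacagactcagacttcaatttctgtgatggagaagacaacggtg
Trav16: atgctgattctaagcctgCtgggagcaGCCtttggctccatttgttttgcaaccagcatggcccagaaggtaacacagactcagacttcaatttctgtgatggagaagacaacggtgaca
Trav16n: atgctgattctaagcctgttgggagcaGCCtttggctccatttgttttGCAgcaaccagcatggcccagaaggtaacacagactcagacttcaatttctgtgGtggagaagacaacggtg
Trav7-5: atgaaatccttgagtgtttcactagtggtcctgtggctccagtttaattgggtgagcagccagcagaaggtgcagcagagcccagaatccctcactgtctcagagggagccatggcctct

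These 5 sets lie on the plus strand. The span from the first to the last printed base, intron included, is chr6:41113567-41113815 for Trbv12-1, chr6:41118864-41119112 for Trbv12-2, chr6:41116036-41116251 for Trbv13-1, chr6:41121396-41121612 for Trbv13-2 and chr6:41130147-41130365 for Trbv13-3. On chromosome 14 it is chr14:53345961-53346207 for Trav8n-2, chr14:53042428-53042674 for Trav8d-2, chr14:53047287-53047588 for Trav16d-dv11, chr14:53743174-53743475 for Trav16, chr14:53351090-53351388 for Trav16n and chr14:53530786-53531096 for Trav7-5. Trbv12-2 differed from Trbv12-1 at 14 of the 120 bases and was 88.2% identical to it over the whole coding sequence. Trbv13-1 and Trbv13-3 were 87.9% and 90.6% identical to Trbv13-2. Trav8d-2 differed from Trav8n-2 at 1 of the printed bases and was 92.6% identical over the whole coding sequence. Trav16 and Trav16n were 96.6% and 97.5% identical to Trav16d-dv11, so reads of the Trav16 genes may be divided among them.

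The mouse Trav locus holds repeated blocks, marked by d and n in the symbols, and many of its genes have a near-identical copy. Of 108 Trav genes with a coding sequence, 30 had a copy with an identical coding sequence, and 28 of these were assigned to no Cd4-gated or Cd8b1-gated cell. Their 30 genes held 6 such cells in all. Of the 54 Trav genes with a copy of at least 98% identity, these included, 31 were assigned to no gated cell, and the median was 0 cells. The 54 Trav genes without such a copy had a median of 43 gated cells and 6 genes with none. None of the 22 Trbv genes with a coding sequence had such a copy, and their median was 228 gated cells. Of the Trav genes named here, Trav3-3, Trav5-4, Trav9-1, Trav10, Trav11 and Trav11d have a copy of at least 98% identity, so their values are uncertain. Cell Ranger, with which the authors counted, keeps by default only reads that map to a single gene, and the part of this in the low counts was not tested.

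**Figure D1:**
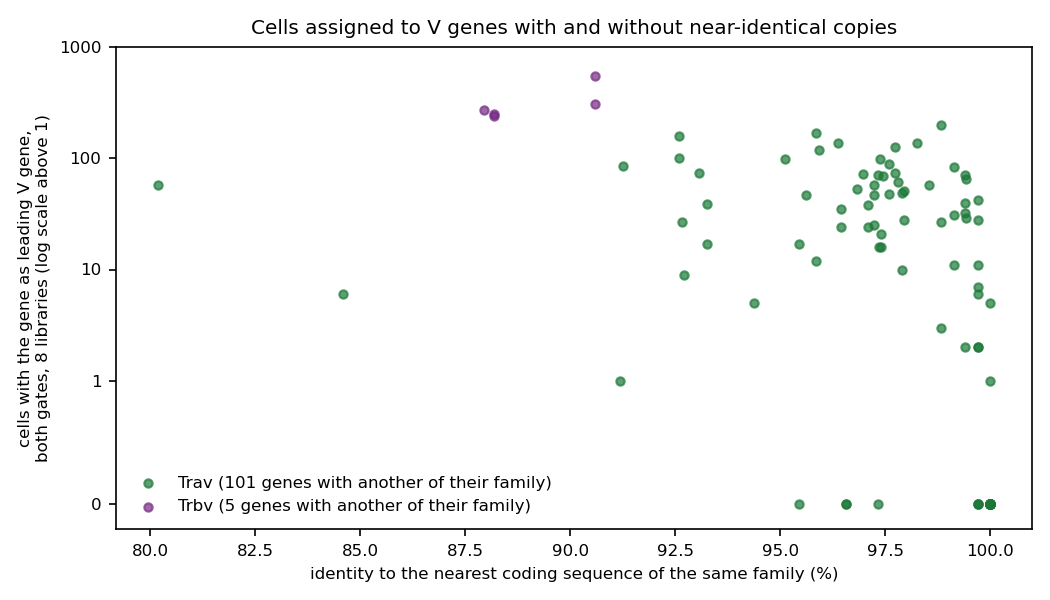
Number of Cd4-gated and Cd8b1-gated T cells assigned to each V gene (vertical axis, log scale above 1) against its coding-sequence identity to the nearest gene of its family (horizontal axis, percent), for the 101 Trav and 5 Trbv genes with another gene of their family. Genes with an identical copy sit at 100% and hold at most 5 cells each, whereas Trav3-3, at 98.8%, holds 199.

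From 4877 to 7199 cells per library were kept, 50147 in all, with a median of 2775.5 to 4130.0 unique molecular identifiers (UMIs, 1 for each captured transcript) per cell. The libraries held 26988646 to 56307389 UMIs over all barcodes. T cells, defined by UMIs of at least 2 of Cd3e, Cd3d and Cd3g, the genes of the CD3 chains that carry the receptor signal, numbered 12228, from 894 to 2232 per library. Of these, 1716 had Cd4 UMIs and none of Cd8b1 (Cd4-gated, 95 to 302 per library), 4410 had Cd8b1 UMIs and none of Cd4 (Cd8b1-gated, 246 to 880 per library), 158 had both and 5944 had neither. Cd8a, the partner chain of Cd8b1, was found in 83.9% to 91.8% of Cd8b1-gated cells and in 0% to 2.36% of Cd4-gated cells. Other cell types left a trace in both gates: S100a8, a neutrophil transcript, was found in 1.63% to 33.7% of Cd4-gated and 2.04% to 42.4% of Cd8b1-gated cells, Cd79a of B cells in 4.90% to 13.7% and 3.34% to 12.2%, and Csf1r of macrophages in 3.97% to 15.7% and 3.68% to 15.9%. The defining thymocyte genes were at or near 0, with Ptcra in no Cd4-gated cell and Rag1 in at most 1.99% of the cells of any library and gate.

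The libraries were not independent in their V gene pairs. The pair of Trav and Trbv genes was read in Cd8b1-gated cells of the 27 hashtag groups with at least 20 paired cells. Between 2 groups, the measure is the number of cell pairs, 1 cell from each group, that share both V genes, per 1000 such cell pairs. Each library had a partner of the same genotype with which its groups of the same hashtag number shared pairs: WT control with WT acute colitis, WT chronic colitis with WT food allergy, App control with App acute colitis, and App chronic colitis with App food allergy. These partners were found from the same values, which therefore describe them and test nothing. The 11 comparisons between partner groups of the same number gave 9.18 to 81.7 matches per 1000, with a median of 22.2. The 306 other comparisons between groups of different libraries gave 0 to 15.0 per 1000, with a median of 1.02, and 2 of them reached the lowest value of the partners. Both of these were between App food allergy hashtag 6 and hashtag 4 of App acute colitis or App control, at 15.0 and 11.3 per 1000. Within a single group the value was 4.33 to 152 per 1000, with a median of 30.0, and between groups of the same library the median was 1.07.

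**Figure D2:**
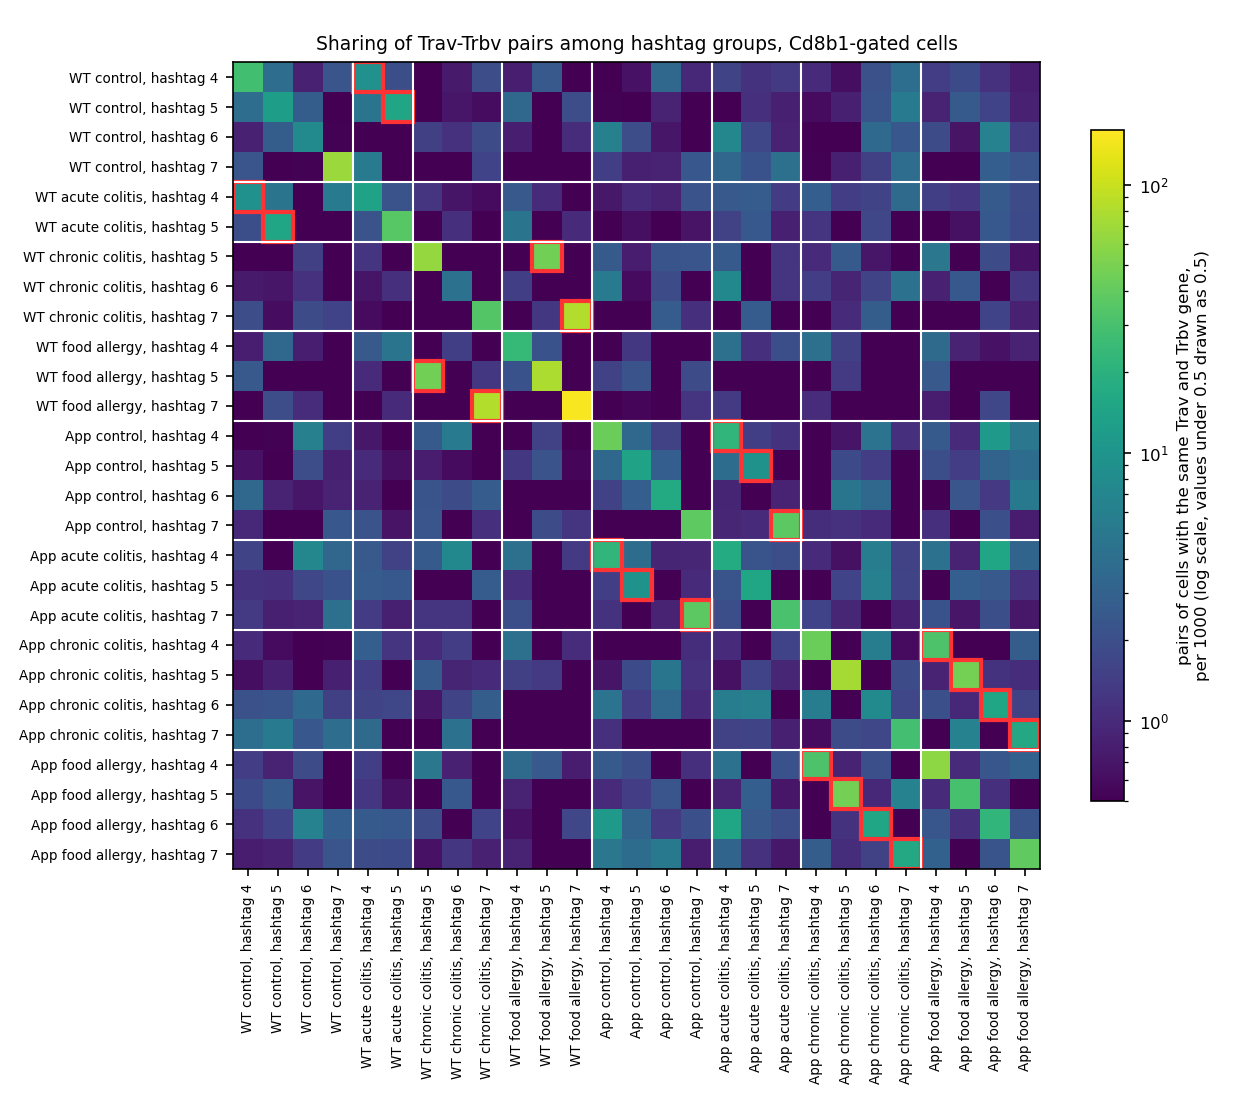
Matches in Trav-Trbv pair per 1000 pairs of Cd8b1-gated cells between every 2 of the 27 hashtag groups, with both axes listing library and hashtag number and colour giving the value on a log scale. Outlined squares are groups of the same number in partner libraries, which gave 9.18 to 81.7 against a median of 1.02 for the other comparisons between libraries.

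Of the 22 groups that had a partner, 21 shared the most pairs with it. Over the 11 couples of groups, 105 pairs were found on both sides, and 18.4% to 64.9% of the paired cells of a group (median 41.0%) carried a pair found in its partner. This share is not given for groups that are not partners, so it is not read as particular to partners. The partners did not share cell barcodes more than other libraries did, with 34 to 72 barcodes in common against 34 to 71. With Trbv genes alone, 8 of 22 groups matched their partner best, and with Trav genes alone 11 of 22. In Cd4-gated cells, in groups of at least 10 cells, 2 of 18 did, and in T cells with neither UMI 7 of 22. Whether cells of the same mice were in both libraries was not tested. The tests that follow treat the 8 libraries as separate samples. The comparisons of gates, of cells with and without Ccl5 or Foxp3, and of genotypes were run again with the 4 couples summed, and the value is given where a call differs. The treatments were not compared in this way.

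V genes were read in most gated cells, and beta chains more often than alpha chains. A Trbv gene was assigned in 85.7% ± 3.62 (SD, n = 8 libraries) of Cd4-gated cells and in 86.1% ± 5.58 of Cd8b1-gated cells, and a Trav gene in 57.6% ± 6.40 and 58.8% ± 4.17. In B cells, which rearrange no T cell receptor, a Trbv UMI was found in 58 of 12733 cells and a Trav UMI in 22. In neutrophils the numbers were 108 and 9 of 5284. The highest share in any library was 0.674% of B cells and 2.88% of neutrophils for Trbv, far below the shares in T cells. The median depth of these cells was 2211.5 to 2937 UMIs in B cells and 2028 to 12646 in neutrophils, against 2982 to 3923 in T cells. Among gated cells with a single hashtag and at least 2 UMIs of a Trbv gene, 8.21% of 3908 (exact 95% interval 7.37 to 9.12) had at least 2 UMIs of each of several Trbv genes. Of those with at least 2 UMIs of a Trav gene, 12.0% of 1979 had several Trav genes. Trav2 and Trav8d-2, for example, were found together in 14 of the 39 cells with Trav2. In droplets with several hashtags, which can hold several cells, the shares on the same bases were 18.5% of 778 for Trbv and 15.6% of 409 for Trav. Intervals on shares of cells cover counting error only.

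The beta repertoire of both gates rested on few genes. In Cd4-gated cells 23 of the 35 Trbv genes were assigned to any of the 1464 cells, the 6 most used held 55.3% of them, and 6 genes sufficed for 50%. In Cd8b1-gated cells 22 genes were assigned to any of 3854 cells, the top 6 held 48.1%, and 7 were needed for 50%. Pseudogenes accounted for 5 and 12 of these cells. The 12 Trbv genes with no gated cell include 11 pseudogenes.

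Trbv13-2 was the most used beta gene of Cd4-gated cells. Its usage was 7.46% in the lowest library, App acute colitis, 14.8% in the median and 26.1% in the highest, App food allergy, with a mean of 15.1% ± 5.34 (SD, n = 8). In Cd8b1-gated cells it was 5.08% to 13.8% (median 6.66%), and it was lower there than in the Cd4-gated cells of the same library in 8 of 8 libraries. Trbv3 was high in both gates. It reached 6.82% to 12.2% (median 10.4%) of Cd4-gated cells and 7.81% to 19.1% (median 10.0%) of Cd8b1-gated cells, where it ranked highest on the mean, 12.1% ± 4.77. The 2 libraries with the highest Trbv3 usage in Cd8b1-gated cells were App acute colitis and App control, the partners, at 19.1% and 18.7%.

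Trbv19 stood out in 1 library. Its usage in Cd4-gated cells was 3.92% to 11.9% in 7 libraries and 20.2% in WT food allergy, and in Cd8b1-gated cells 4.95% to 8.42% in 7 libraries and 18.2% in WT food allergy. Both gates of WT food allergy thus stood above all the others. Of its Cd8b1-gated cells with Trbv19, 10 also had Trav12-1, and the 7 of these with a single hashtag were all of hashtag 5. Trbv16 held 2.72% to 13.7% (median 7.51%) of Cd4-gated cells. Trbv1 and Trbv2 completed the Cd4 group, at 4.42% to 10.2% (median 6.57%) and 3.21% to 7.95% (median 5.29%). Both had a lower usage in Cd8b1-gated than in Cd4-gated cells in 8 of 8 libraries.

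After Trbv3 and Trbv19, the leading beta genes of Cd8b1-gated cells were Trbv29, Trbv13-2, Trbv13-3 and Trbv12-2. Trbv29 held 3.09% to 11.8% (median 7.75%) of Cd8b1-gated cells, with 3.09% to 4.57% in App acute colitis, App control and WT chronic colitis and 7.69% to 11.8% in the other 5 libraries. Trbv13-3 held 3.77% to 9.30% (median 6.11%) and Trbv12-2 3.95% to 10.7% (median 5.90%). Trbv13-1, the remaining gene of its family, held 2.37% to 8.91% of Cd8b1-gated and 1.49% to 6.42% of Cd4-gated cells and was higher in the Cd8b1 gate in 4 of 8 libraries. Trbv31, which lies beyond the constant genes and on the minus strand, so that it joins by inversion, was used by 1.71% to 11.5% of Cd8b1-gated and 1.20% to 8.15% of Cd4-gated cells.

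**Figure D3:**
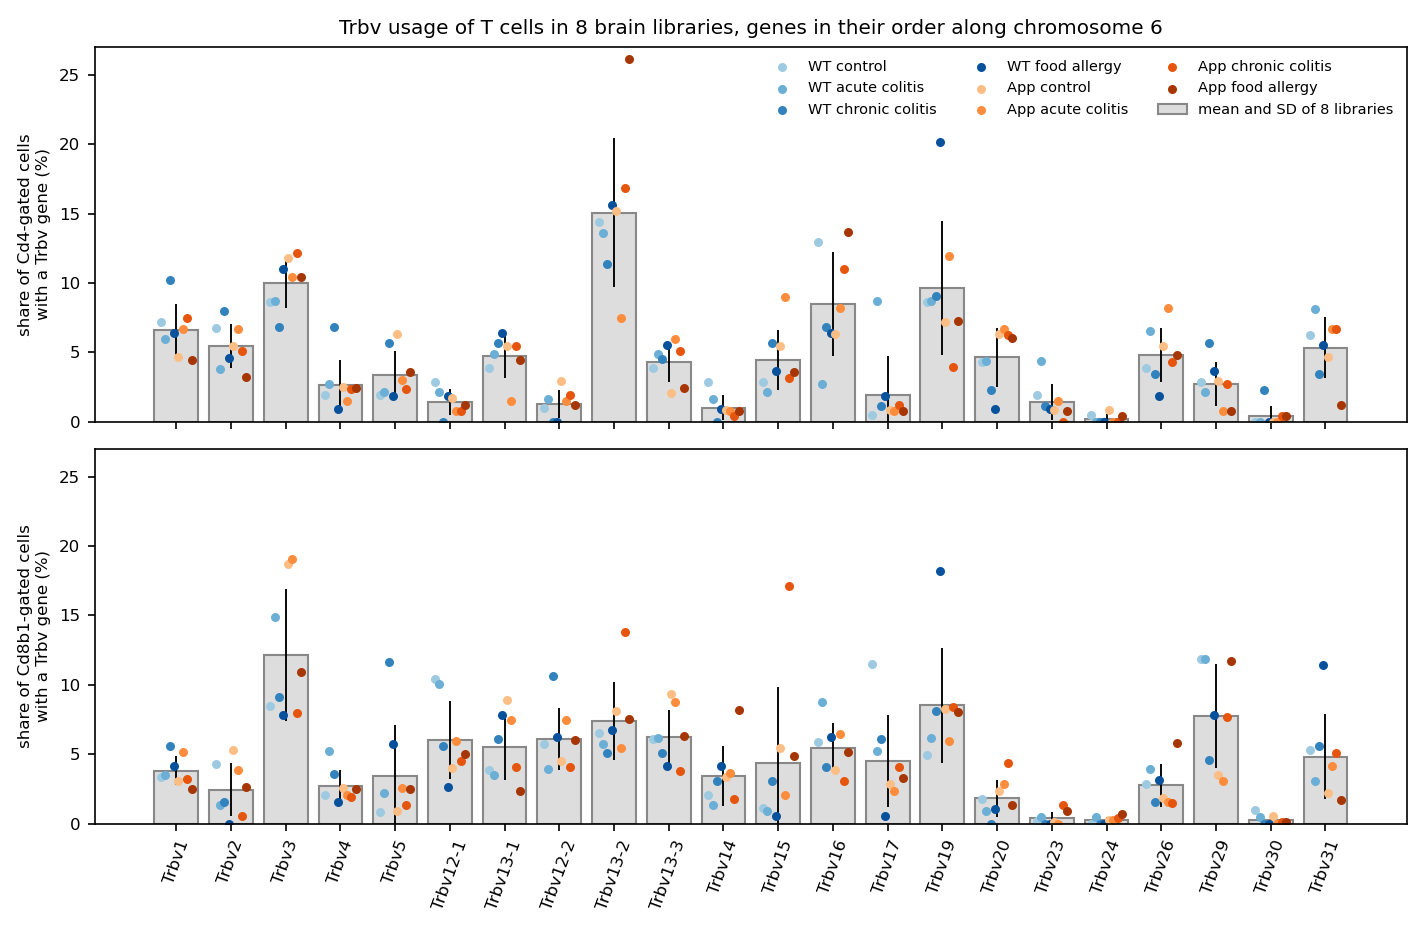
Usage of the 22 Trbv genes drawn (percent of cells with an assigned Trbv gene) in each library, in Cd4-gated and Cd8b1-gated T cells. Points are libraries, bars are means and lines are SD over 8 libraries, and Trbv13-2 is highest in Cd4-gated cells at a mean of 15.1% and Trbv3 in Cd8b1-gated cells at 12.1%.

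The alpha repertoire was spread over more genes. In Cd4-gated cells 72 of the 128 Trav genes were assigned to any of 991 cells, the top 6 held 28.2%, and 16 were needed for 50%. In Cd8b1-gated cells 73 were assigned to any of 2531 cells, the top 6 held 26.9%, and 14 were needed for 50%. Of the 52 Trav genes with no gated cell, 15 are pseudogenes.

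In Cd4-gated cells Trav7-5 led with a mean of 7.84% ± 6.40 (SD, n = 8). Its usage was 2.74% in the lowest library, 5.23% in the median, 12.8% in App chronic colitis and 21.6% in App food allergy. Without these 2 partner libraries the highest value was 7.41%. The next were Trav13-1 (2.92% to 6.85%, median 4.94%), Trav10 (1.37% to 8.22%, median 3.71%) and Trav4-4-dv10 (1.23% to 6.85%, median 4.19%). Trav9-1 held 1.89% to 5.48% (median 4.06%), and its usage was lower in Cd8b1-gated cells in 8 of 8 libraries. Trav6-7-dv9 held 1.23% to 4.80% (median 3.81%).

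In Cd8b1-gated cells the mean was highest for Trav8n-2, at 6.08% ± 4.20 (SD, n = 8), with 1.61% in the lowest library, 4.73% in the median and 13.9% in WT food allergy. Trav3-3 followed with 1.82% to 11.6% (median 5.21%). Of the remaining leaders, several were high in few libraries. Trav8d-2 was 12.2% in App acute colitis and 1.21% to 4.53% in the other 7, and Trav5-4 was 11.1% in App chronic colitis, 6.89% in its partner App food allergy and 0.606% to 4.73% in the others. Trav12-1 was 8.96% in App acute colitis and 1.35% in the lowest library, and Trav12-2 was 1.99% to 6.08% (median 3.62%).

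Which V genes differed between CD8 and CD4 T cells was tested on UMIs summed over the cells of each gate, with each library as a block, in a fit over all genes. Levels are given in CPM, the UMIs of a gene per 1000000 UMIs of the summed cells, which weights a cell by its transcripts, whereas usage counts cells. Of the 163 V genes, 65 had enough UMIs to be tested, 21 Trbv and 44 Trav genes, and 98 did not. The filter keeps a gene that is high in a single gate, so these counts describe the genes tested and not the loci. At an adjusted p of 0.05 (edgeR quasi-likelihood test), 9 V genes, or 13.8%, were higher in Cd8b1-gated cells, against 5.5% of the 9976 genes tested, and 9, again 13.8%, were lower, against 5.58%. At an unadjusted p under 0.05 there were 35 of the 65 V genes, and 23.3% of all genes tested. The median size of the log2 fold change was 0.91 over the V genes and 0.15 over all genes. With the 4 couples of libraries summed, 8 of 75 V genes were higher and 7 lower, against 3.15% and 3.64% of 11025 genes. Without the library block 31 V genes were tested, of which 5 were higher and 6 lower, against 3.39% and 3.83% of 8649 genes.

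Trbv12-1 and Trbv12-2, the Trbv12 genes shown above, had the smallest adjusted p among beta genes. Trbv12-1 had 6.14 CPM in the lowest, 10.1 in the median and 29.4 in the highest Cd4-gated library, and 18.2, 44.6 and 91.2 CPM in Cd8b1-gated cells. Its log2 fold change was 2.23 (SE 0.20, edgeR adjusted p = 2.65e-05), and its usage was higher in Cd8b1-gated cells in 8 of 8 libraries, with means of 6.01% against 1.41%. The 2 gates overlapped across libraries, and within each of the 8 libraries the Cd8b1-gated cells were higher. Trbv12-2 had 0, 23.1 and 48.7 CPM in Cd4-gated cells and 48.9, 73.0 and 97.4 CPM in Cd8b1-gated cells, with no overlap. Its log2 fold change was 1.75 (SE 0.28, edgeR adjusted p = 0.00147), and usage was higher in 8 of 8 libraries, at 6.09% against 1.28%.

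Trbv29 and Trbv17 were higher in Cd8b1-gated cells as well. Trbv29 had 6.31, 23.3 and 55.3 CPM (lowest, median, highest) in Cd4-gated and 27.1, 63.0 and 105 CPM in Cd8b1-gated cells, a log2 fold change of 1.62 (SE 0.33, edgeR adjusted p = 0.00774). Its usage was higher in 7 of 8 libraries. Trbv17 had 3.69, 14.4 and 168 CPM in Cd4-gated and 8.47, 104 and 435 CPM in Cd8b1-gated cells, so its range was wide and the gates overlapped. Its log2 fold change was 2.11 (SE 0.52, edgeR adjusted p = 0.0213), and the call was lost without App chronic colitis or App food allergy and without the library block. Trbv17 usage was higher in Cd8b1-gated cells in 6 of 8 libraries.

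Among alpha genes, Trav8n-2 and Trav8d-2 shown above were higher in Cd8b1-gated cells. Trav8n-2 had 0, 4.21 and 18.8 CPM in Cd4-gated and 11.6, 21.6 and 88.0 CPM in Cd8b1-gated cells, a log2 fold change of 2.54 (SE 0.20, edgeR adjusted p = 9.61e-06). Trav8d-2 had 0, 2.27 and 6.14 CPM against 7.17, 12.9 and 80.4 CPM, with no overlap and a log2 fold change of 3.10 (SE 0.50, edgeR adjusted p = 0.00181). Usage of each was higher in Cd8b1-gated cells in 8 of 8 libraries. The Cd4-gated cells held 41 UMIs of Trav8n-2 and 19 of Trav8d-2 in all, so the size of these folds rests on few molecules. The family also holds Trav8-1 and Trav8d-1, which were assigned to 22 and 13 of 991 Cd4-gated cells and to 13 and 11 of 2531 Cd8b1-gated cells.

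Trav16d-dv11, Trav3-3 and Trav16 were the other alpha genes higher in Cd8b1-gated cells. Trav16d-dv11 had 8 UMIs in 3 Cd4-gated libraries and 180 UMIs in 8 Cd8b1-gated libraries, at 1.55, 4.08 and 51.2 CPM in the latter. Its log2 fold change was 2.85 (SE 0.66, edgeR adjusted p = 0.015) and was not called with the couples summed or with gates of 2 UMIs. Trav3-3 had 5.05, 12.0 and 23.9 CPM in Cd4-gated and 7.73, 20.8 and 46.5 CPM in Cd8b1-gated cells, with gates that overlapped and a log2 fold change of 0.91 (SE 0.22, edgeR adjusted p = 0.0203). That call was lost in 7 of 17 alternatives, which were DESeq2, cells with 1 hashtag, no library block, gates of 2 UMIs, sums per hashtag group, and leaving out App control or App chronic colitis. Trav16 had 1.09, 3.01 and 9.24 CPM against 2.25, 5.22 and 21.5 CPM and a log2 fold change of 1.34 (SE 0.39, edgeR adjusted p = 0.0459), and it was lost without any 1 of 6 libraries, App control and WT chronic colitis being the exceptions, and with DESeq2, all 3 Cd3 genes or the couples summed.

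Among beta genes, Trbv13-2, Trbv1 and Trbv20 were lower in Cd8b1-gated cells. Trbv13-2 had 74.4, 187 and 303 CPM in Cd4-gated and 53.0, 91.6 and 164 CPM in Cd8b1-gated cells, a log2 fold change of -0.86 (SE 0.15, edgeR adjusted p = 0.00317). Trbv1 had 56.3, 136 and 197 CPM against 28.0, 56.8 and 91.2 CPM, and its log2 fold change was -1.05 (SE 0.17, edgeR adjusted p = 0.00183). The ranges overlapped for both, while their usage was lower in the Cd8b1 gate within each of the 8 libraries. Trbv20 had 16.3, 48.6 and 87.7 CPM in Cd4-gated and 3.70, 18.1 and 54.6 CPM in Cd8b1-gated cells, with a log2 fold change of -1.21 (SE 0.23, edgeR adjusted p = 0.00534). It was not called without the library block or with gates of 2 UMIs.

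Among alpha genes, 6 were lower in Cd8b1-gated cells. Trav10 had 8.12, 15.7 and 35.0 CPM in Cd4-gated and 1.95, 5.37 and 10.8 CPM in Cd8b1-gated cells, a log2 fold change of -1.46 (SE 0.22, edgeR adjusted p = 0.00105). Trav9-1 had 7.38, 13.3 and 32.5 CPM against 0, 3.34 and 9.27 CPM, and its log2 fold change was -1.80 (SE 0.36, edgeR adjusted p = 0.00656). Trav14-1 changed by -1.64 (SE 0.30, edgeR adjusted p = 0.00406), from 6.17, 11.5 and 17.4 CPM to 0.964, 3.56 and 6.18 CPM, and with gates of 2 UMIs it was -0.96 and not called. The usage of Trav9-1 and Trav14-1 was lower in the Cd8b1 gate in 8 of 8 libraries. Trav7-5, Trav4-4-dv10 and Trav9-4 had log2 fold changes of -1.60 (SE 0.42), -1.64 (SE 0.44) and -1.12 (SE 0.31), with edgeR adjusted p of 0.0299, 0.0344 and 0.0408.

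These last 3 genes depended on single libraries. The Trav7-5 change was not called without App control, App chronic colitis or App food allergy, and without App food allergy, which held 147 CPM in Cd4-gated cells against a median of 18.7, it was -1.05. The Trav4-4-dv10 call was lost without WT control, WT acute colitis, App control, App chronic colitis or App food allergy, and that of Trav9-4 without any library except App acute colitis or App chronic colitis. With the couples summed or gates of 2 UMIs, none of the 3 was called. Over all alternatives in which they were tested, Trav7-5 kept its call in 12 of 17, Trav4-4-dv10 in 9 of 17 and Trav9-4 in 4 of 15. By contrast Trbv12-1, Trbv12-2, Trbv29, Trav8n-2, Trav8d-2, Trbv1, Trbv13-2, Trav10 and Trav9-1 were called with the same sign in every alternative in which they were tested.

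**Figure D4:**
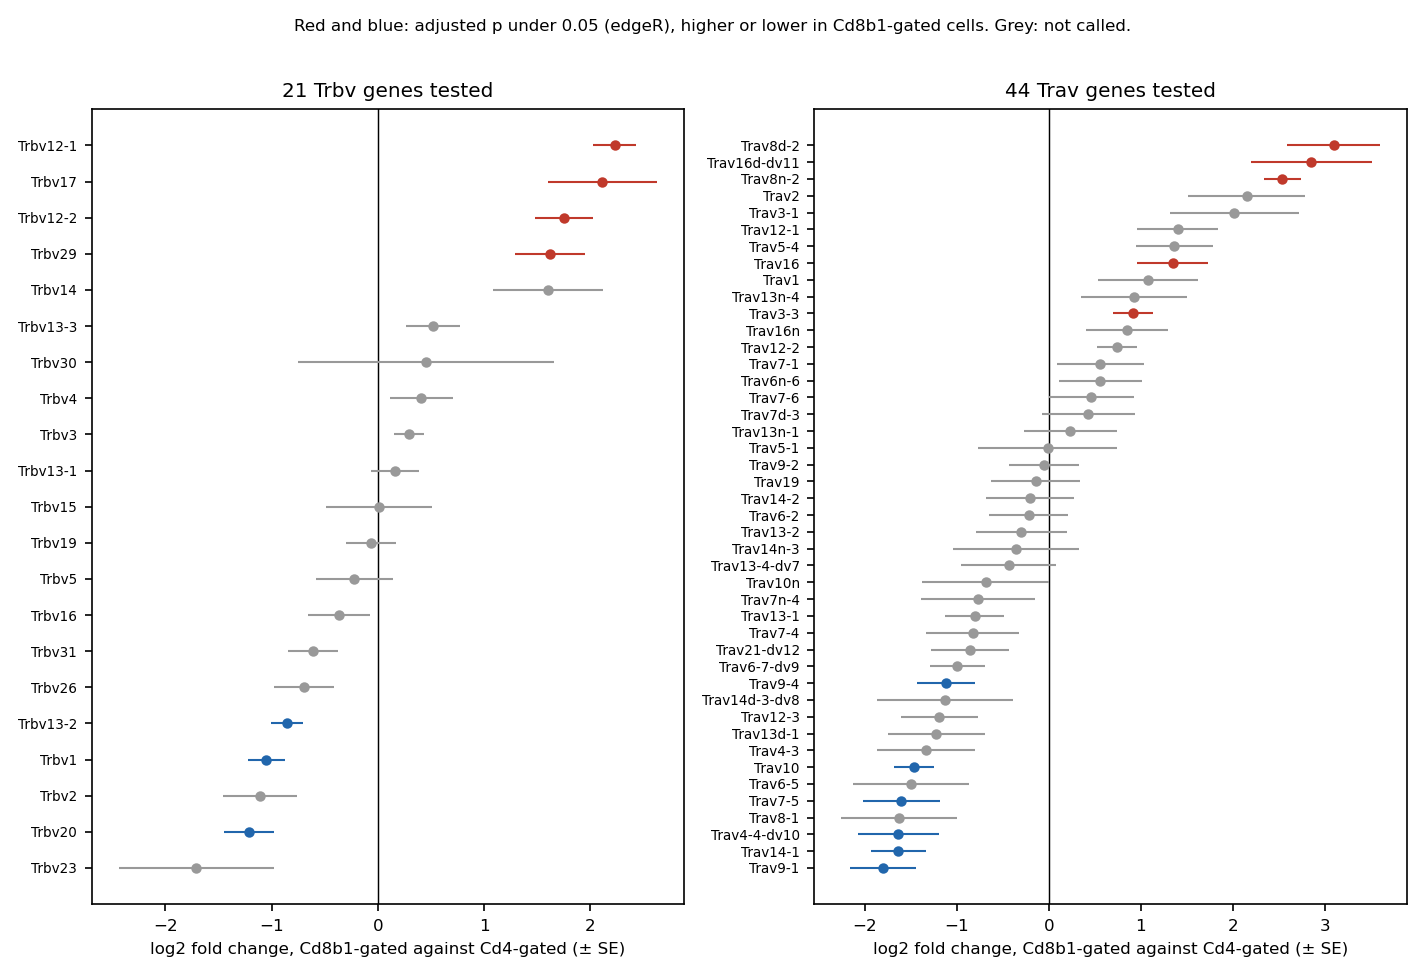
Log2 fold change of Cd8b1-gated over Cd4-gated T cells for the 21 Trbv and 44 Trav genes tested, with bars for 1 standard error over 8 libraries. The genes called at an adjusted p of 0.05 run from -1.80 for Trav9-1 to 3.10 for Trav8d-2, with 9 higher (red) and 9 lower (blue), and grey genes were not called.

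When the V genes of a family were summed, so that reads assigned to different copies counted together, 34 families were tested and 7 were higher and 6 lower in Cd8b1-gated cells, against 5.49% and 5.6% of 9945 features. Those higher were Trbv12, Trbv17, Trbv29, Trav2, Trav3, Trav8 and Trav16. Those lower were Trbv1, Trbv20, Trav4, Trav6, Trav9 and Trav10. The Trbv13 family was not among them. Trbv13-2 was lower, while Trbv13-1 and Trbv13-3 had log2 fold changes of 0.16 (SE 0.23) and 0.52 (SE 0.26), which did not pass the test.

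The genes of the rest of the receptor and its signalling were compared in the same fit. Cd4, Cd8b1 and the CD3 genes Cd3e, Cd3d and Cd3g chose the cells, so they are left out. Of the rest of a list of 26, 18 were tested. In Cd8b1-gated cells 6 were higher and 5 lower, against 5.5% and 5.58% of the 9976 genes tested. Cd8a, the partner chain of Cd8b1, is among the 6, and its direction follows from the gate. The constant genes did not pass the test, with log2 fold changes of -0.12 (SE 0.08) for Trac and 0.15 (SE 0.07) for Trbc2. Cd247, the zeta chain of the receptor complex, was lower, with a log2 fold change of -0.55 (SE 0.06, edgeR adjusted p = 0.000163). Cd5, a brake on receptor signalling, had a log2 fold change of -1.52 (SE 0.11, edgeR adjusted p = 5.33e-06), and Cd28, the main costimulatory receptor, of -0.76 (SE 0.07, adjusted p = 4.48e-05). The kinases Lck and Fyn were higher, by 0.25 and 0.32 on the log2 scale. Ptcra, Rag1 and Rag2 were too low to test.

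Within Cd8b1-gated cells, those with Ccl5, a chemokine that antigen-experienced CD8 T cells make, were compared with those without. The cells without Ccl5 were few, 8 to 51 per library against 225 to 845 with it. Of 51 V genes tested, 5 were higher in cells with Ccl5, or 9.8% against 2.16% of all 9252 genes tested, and none was lower, against 0.562%. At an unadjusted p under 0.05 in either direction there were 16 of the 51 V genes, and 11.5% of all genes tested (edgeR). DESeq2 called 4 higher and none lower. With the couples summed 5 of 56 were higher and 1 lower, against 169 and 67 of 10339 genes. A V gene could have enough UMIs for the test through the larger group alone, so the direction of these counts is not read as a result. Trbv3 had 0, 24.8 and 156 CPM (lowest, median, highest) in cells without Ccl5 and 81.0, 170 and 271 CPM in cells with it, a log2 fold change of 2.61 (SE 0.38, edgeR adjusted p = 0.00015). The ranges overlapped, and 2 libraries had no Trbv3 UMI in the small gate. Trbv15 had 0, 11.9 and 56.8 CPM against 7.43, 49.5 and 421 CPM and a log2 fold change of 1.83 (SE 0.38, edgeR adjusted p = 0.00694), which was not called without App chronic colitis.

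The remaining 3 genes rested on a few UMIs in the cells without Ccl5. Trav8d-2 had 1 UMI in all of them and 491 in the cells with Ccl5, and Trav12-2 had 4 UMIs, all in 1 library, against 362. Trav12-1 had no UMI in the 1004024 UMIs of the cells without Ccl5 and 228 in those with it. It was tested through the cells with Ccl5 alone, and 1 cell can hold several of its UMIs, so no fold is given. The call of Trav12-1 was lost with any of 6 libraries left out, the exceptions being WT acute colitis and WT chronic colitis, and with DESeq2. That of Trav12-2 was lost with any of 6 left out, the exceptions being WT chronic colitis and App control, in cells with 1 hashtag and with the couples summed. Of the 18 receptor genes tested that did not choose the cells, 3 were higher, Cd8a, Fyn and Ptpn22, against 2.16% of all genes tested.

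Within Cd4-gated cells, those with Foxp3, the transcription factor that defines regulatory T cells, were compared with the rest. They numbered 9 to 25 per library. None of 35 V genes tested was higher, against 0.689% of 6674 genes tested, and 1 was lower, or 2.86% against 0.854%. At an unadjusted p under 0.05 (edgeR) there were 7 of the 35 V genes and 10.4% of all genes. The gene called was Trbv26, with 335 UMIs in Foxp3-negative cells, at 8.27, 54.0 and 63.2 CPM, and 6 UMIs in 2 of 8 libraries in Foxp3-positive cells. Its log2 fold change was -2.88 (SE 0.61, edgeR adjusted p = 0.0237), and it was lost when WT control, WT acute colitis, App acute colitis, App chronic colitis or App food allergy was left out. With the couples summed it was -2.85 (SE 0.60, edgeR adjusted p = 0.0872), and no V gene of 40 was called, with 10 at an unadjusted p under 0.05. DESeq2 called 2 V genes lower and none higher. At this number of cells 128 of the 163 V genes had too few UMIs to be compared. The Foxp3-negative cells held 6875195 UMIs in all and the Foxp3-positive cells 907348. A V gene could thus be tested through the larger group alone, so the direction of these counts is not read as a result. Of the 16 receptor genes tested that did not choose the cells 3 were lower, among them Lat and Themis, the last with a log2 fold change of -1.80 (SE 0.26, edgeR adjusted p = 0.00133).

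The genotype was compared across the 4 treatments, 4 App libraries against 4 WT libraries. In Cd4-gated cells none of 44 V genes tested was higher or lower at an adjusted p of 0.05 (edgeR), against 0.0442% and 0.0221% of 9047 genes. At an unadjusted p under 0.05 (edgeR) there were 14 of the 44 V genes and 5.86% of all genes. DESeq2 called none of the 44 V genes either. In Cd8b1-gated cells 1 of 65 V genes, or 1.54%, was higher in App libraries, against 0.085% of 10594 genes, and none was lower, against 0.0283%. There 12 of the 65 V genes and 6.7% of all genes had an unadjusted p under 0.05 (edgeR), and DESeq2 called 1 V gene higher and 1 lower. The gene called was Trav3-3, which had 7.73 CPM in WT acute colitis, 8.63 CPM in WT chronic colitis, 10.4 CPM in WT food allergy and 18.7 CPM in WT control. It had 22.9 CPM in App acute colitis, 32.6 CPM in App food allergy, 37.3 CPM in App chronic colitis and 46.5 CPM in App control. Each App library was above each WT library, and the log2 fold change was 1.66 (SE 0.15, edgeR adjusted p = 0.0303).

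In the App libraries part of the Trav3-3 cells shared their beta gene. In App control 29 of 455 paired Cd8b1-gated cells had Trav3-3 with Trbv3, and in App chronic colitis 28 of 405 had Trav3-3 with Trbv15. Of their cells with a single hashtag, 24 of 25 were of hashtag 4 in the former and 25 of 26 of hashtag 4 in the latter. Trav3-3 with Trbv3 was also found in 14 of 427 paired cells of App food allergy, where 9 of 13 with a single hashtag were of hashtag 6. In App acute colitis it was found in 4 of 219, all of hashtag 4. With the couples of partner libraries summed, the log2 fold change was 1.62 and not called, and the call was lost without WT control, WT chronic colitis, App control or App chronic colitis. In Cd4-gated cells Trav3-3 had 5.53 to 13.4 CPM in WT and 5.05 to 23.9 CPM in App libraries, and the genotypes overlapped.

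The treatments were each compared with control over the 2 genotypes. No V gene was called in acute colitis, chronic colitis or food allergy, among 44 tested in Cd4-gated and 65 in Cd8b1-gated cells (edgeR). All genes were called at 0.0774%, 0.0111% and 0% higher and at 0.0221% lower each in Cd4-gated cells, and at 0.00944%, 0.00944% and 0% higher and 0.0378%, 0.0283% and 0.0189% lower in Cd8b1-gated cells. At an unadjusted p under 0.05 (edgeR) there were 5, 7 and 9 of the 44 V genes in Cd4-gated cells, against 5.37%, 3.66% and 4.75% of all genes. In Cd8b1-gated cells there were 7, 9 and 8 of the 65 V genes, against 2.97%, 2.5% and 2.44%. DESeq2 called none in any of these 6 comparisons except 1 higher in food allergy in Cd8b1-gated cells. In acute colitis against control both libraries of a couple stand on opposite sides, so a group of cells found in both counts on both sides. In chronic colitis or food allergy against control no couple spans the comparison, and couple and treatment cannot be told apart. None of the 21 and 22 receptor genes tested was called in any genotype or treatment comparison by edgeR or DESeq2, with 0 to 2 of them at an unadjusted p under 0.05 (edgeR).

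How concentrated the V genes were was described by the probability that 2 cells of a library and gate share their V gene. For Trbv it was 7.81% ± 1.81 (SD, n = 8) in Cd4-gated and 7.50% ± 0.729 in Cd8b1-gated cells, with 5 of 8 libraries higher in the latter. For Trav it was 2.85% ± 1.32 and 3.78% ± 0.831, with 6 of 8 libraries higher in Cd8b1-gated cells. These differences were smaller than the spread between libraries.

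When both chains were read, cells that share a pair were common in Cd8b1-gated cells. The probability that 2 cells share both V genes was 1.47% ± 0.416 (SD, n = 8), 0.861% to 2.10%, in Cd8b1-gated cells and 0.976% ± 1.62, 0.170% to 4.92%, in Cd4-gated cells. Pairs with at least 5 cells were counted in each library, so a pair that recurs in another library counts again. The 2231 paired Cd8b1-gated cells held 69 such pairs, which covered 16.9% to 42.4% of the paired cells of a library. The 859 paired Cd4-gated cells held 4, which covered 0% to 22%, and Trav7-5 with Trbv13-2 is among them for 2 libraries. Since only the leading Trav gene of a cell counts, a clone with several Trav genes can appear as several pairs. The pairs with at least 5 cells followed the hashtags. By the same count, 63 Cd8b1 pairs had at least 5 cells with a single hashtag. Of these, 46 lay wholly within 1 hashtag and 54 had at least 80% of their cells in 1 hashtag. The hashtag in question held a median of 43.9% of the paired cells of its library. Pairs that recur between partner libraries enter these counts more than once.

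The 3 pairs with the most cells were in App libraries with 405 to 455 paired Cd8b1-gated cells, whereas the other 5 libraries had 124 to 333. Trav5-4 with Trbv13-2 was found in 41 of 405 paired Cd8b1-gated cells of App chronic colitis, or 10.1% (exact 95% interval 7.36 to 13.5). All 39 of its cells with a single hashtag were of hashtag 5, and 6 cells of hashtag 5 of the partner library App food allergy carried it too. Trav8n-2 with Trbv13-3 was found in 35 of 455 cells of App control, 7.69% (5.42 to 10.5), and its 33 cells with a single hashtag were of hashtag 4. Trav16n with Trbv29 was found in 34 of 427 cells of App food allergy, 7.96% (5.58 to 10.9), and its 28 cells with a single hashtag were of hashtag 7. By share, 3 further pairs lay between the first of these and the other two: Trav8n-2 with Trbv31 in 12 of 124 cells of WT food allergy, 9.68% (5.10 to 16.3), Trav8d-2 with Trbv3 in 21 of 219 of App acute colitis, 9.59% (6.03 to 14.3), and Trav12-1 with Trbv19 in 10 of 124 of WT food allergy, 8.06% (3.94 to 14.3). Of the cells of the first 3 pairs, all 41, 34 of 35 and 33 of 34 had Ccl5 UMIs, as did 90.7% to 97.2% of all Cd8b1-gated cells of a library.

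**Figure D5:**
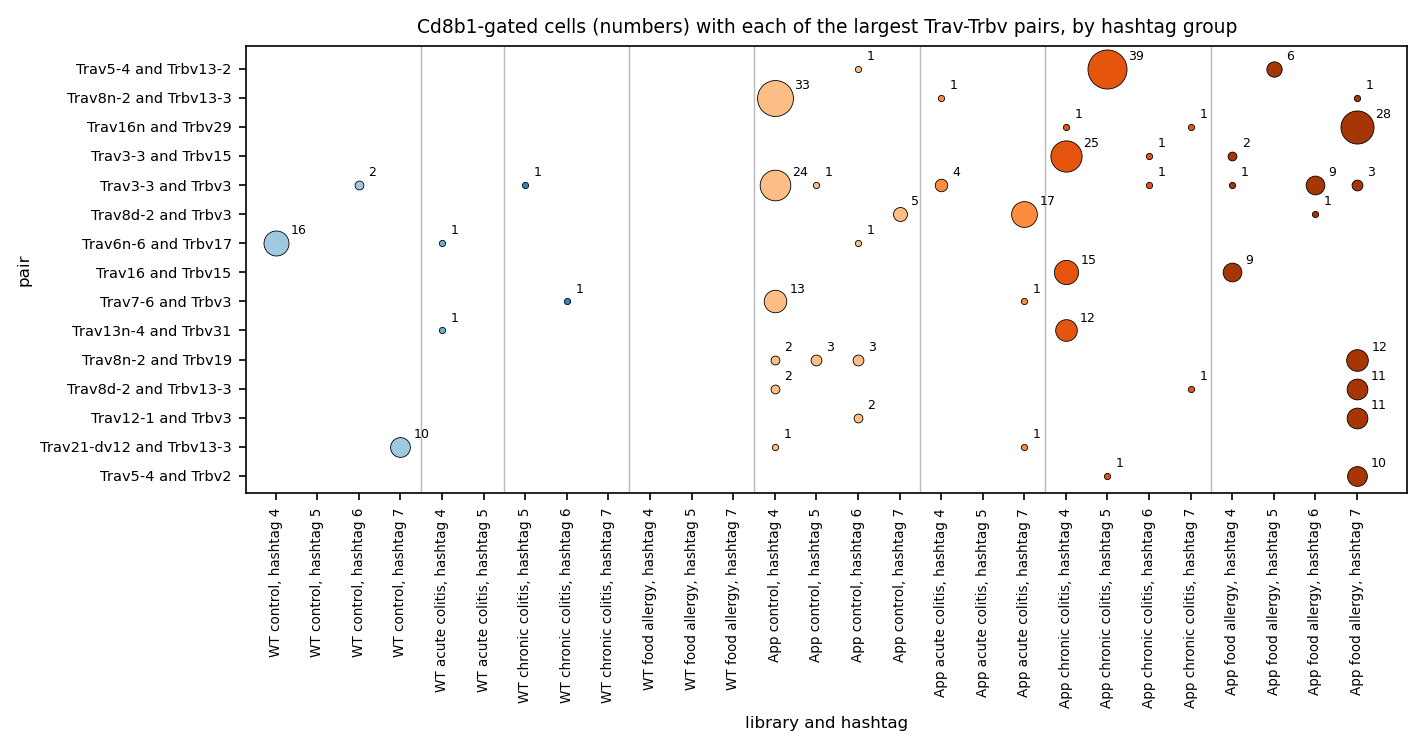
Number of Cd8b1-gated cells with each of the 15 pairs drawn, by library and hashtag group, with circle area and the printed number giving the cells. Most pairs fill a single group, such as 39 cells of Trav5-4 with Trbv13-2 in App chronic colitis hashtag 5, and several recur in the same hashtag number of the partner library, such as 6 cells in App food allergy hashtag 5.

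In Cd4-gated cells a single pair stood out, and it was chosen for description after its values were seen. Trav7-5 with Trbv13-2 was found in 33 of 150 paired cells of App food allergy, or 22% (exact 95% interval 15.7 to 29.5), and in 14 of 160 of its partner App chronic colitis. In the other 6 libraries it was found in 0 or 1 cell each. Of the cells with a single hashtag, 27 of 28 in App food allergy and 10 of 11 in App chronic colitis were of hashtag 4. All 33 cells of App food allergy had Ccl5 UMIs, against 25.3% to 56.6% of all Cd4-gated cells of a library, and 1 had Foxp3. T cells with neither Cd4 nor Cd8b1 UMIs held 35 and 18 further cells of this pair in the same 2 libraries and at most 2 in any other. This pair uses the genes that rank highest in Cd4-gated cells, and App food allergy was also the library with the highest usage of each, at 21.6% for Trav7-5 and 26.1% for Trbv13-2. The cells of the pair are counted in these shares and ranks, which are therefore not separate observations.

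Some Trav genes carry dv in their symbol because they can also join the delta chain, whose segments lie within the alpha locus. Of 12228 T cells, 1336 had UMIs of Trdc, the delta constant gene. In these cells the 10 dv genes held 532 Trav UMIs, or 69.3%, against 12.8% in the other 10892 T cells. The most abundant were Trav13-4-dv7 with 240 UMIs, Trav15-2-dv6-2 with 104, Trav15-1-dv6-1 with 79 and Trav15d-1-dv6d-1 with 49. A Trdc UMI was found in at most 3.25% of the Cd8b1-gated and 3.15% of the Cd4-gated cells of a library, so these cells lay mostly outside both gates.

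The alpha chains of invariant T cells were assigned to few T cells. Of all 12228 T cells, 5944 had neither Cd4 nor Cd8b1 UMIs and 846 had Zbtb16. Trav11, which encodes the chain of invariant natural killer T cells that read lipids on CD1d, was assigned to 17 of 12228 T cells, of which 7 had Zbtb16, the transcription factor of innate-like T cells. Of these cells, 1 was Cd4-gated, 1 Cd8b1-gated and 15 had neither UMI. Trav11d was assigned to no cell, and its coding sequence is 99.7% identical to that of Trav11. Trav1, which encodes the chain of mucosal-associated invariant T cells, was assigned to 150 T cells, of which 21 had Zbtb16. Of these 150 cells, 9 were Cd4-gated, 53 Cd8b1-gated and 84 had neither UMI. Since many T cells of any kind had neither UMI, this is not read as particular to Trav1. In Cd8b1-gated cells its usage was 9.70% in WT chronic colitis and 7.95% in its partner WT food allergy, and 0.545% to 1.57% in the other 6 libraries. Of the 16 such cells of WT chronic colitis, 7 carried Trbv5, and all 6 of these with a single hashtag were of hashtag 5. Whether the Trav1 cells of these 2 libraries were invariant T cells was not tested. The genotype difference of Trav1 in Cd8b1-gated cells, a log2 fold change of -1.37 (SE 0.66), did not pass the test (edgeR adjusted p = 0.769).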

How the data were processed

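The authors prepared the libraries with the 10x Genomics 5′ kit and counted them with Cell Ranger (6.1.2 in their methods) on the mm10 genome. The deposited values are UMI counts per gene and barcode, not normalized and not filtered for cells, so cells were called anew. Cell calling combined an order-of-magnitude cutoff, set for 3000 expected cells, with a test of the remaining barcodes from 500 UMIs upward against empty droplets (false discovery rate 0.01). Cells needed at least 200 genes and at most 5% of mitochondrial UMIs, and doublets were not removed beyond the hashtag counts reported. A hashtag was called above the valley between the 2 modes of its counts, and from 50 counts at least. A V gene was assigned from 1 UMI, and cells whose leading genes tied were not assigned.

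UMI counts were summed per library and gate over all genes and tested with the quasi-likelihood test of edgeR 4.0.16 in R 4.3.3 after TMM scaling and filterByExpr. Benjamini-Hochberg adjustment ran over all genes tested, and genes were called at 0.05. Library was a block between gates, and genotype and treatment were terms together in the other fits, with 1 library for each condition. The fits were tested on simulated data, drawn independently for each sum of cells. Those data lack the pairs shared between partner libraries, so they do not show how the p-values behave under such sharing. Shares have exact Clopper-Pearson 95% intervals and were computed with Python 3.11.15 and scipy 1.17.1. V gene sequences came from the GENCODE vM21 transcripts, with no genome used.

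The V genes, the gates and the lists were chosen with earlier results of these data known. The V genes named were the 6 most used of each prefix and gate, those called between gates (up to 6 for each prefix and direction) or in another comparison (up to 4), the chains of invariant T cells, Trbv13-1, Trbv13-3, Trbv31, up to 4 dv genes and the 3 pairs with the most cells, and a list of 26 receptor and signalling genes was given by counts and examples, of which 1 gene is not reported here by name. The alternatives were DESeq2 1.42.0 (its size factors or its Wald test), no filter, cells with 1 hashtag, V gene families, leaving out each library, no library block, gates or V genes from 2 UMIs, all 3 Cd3 genes and sums per hashtag group. Summing partner libraries was added after the sharing of pairs was seen, and the pairs ranked by share were named after their values were seen.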

Additional observations from a re-analysis of the deposited data

Results flagged for a closer look

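Usage in 1 library stood apart from the other 7, by a gap to the nearest library that was large for the range of the 8 (Dixon's criterion at 95%), in 13 of 72 sets of values. Chance gives about 1 in 20 of independent sets, but these share libraries and cells and hold genes chosen for their usage or their call, so the count is not compared with it. In Cd8b1-gated cells, Trbv19 was 18.2% in WT food allergy against 4.95% to 8.42% elsewhere, and Trbv31 was 11.5% in the same library against 1.71% to 5.58%. Trbv15 was 17.1% in App chronic colitis against 0.521% to 5.43%, and Trbv13-2 was 13.8% in that library against 5.08% to 8.14%. Trav8d-2 was 12.2% in App acute colitis against 1.21% to 4.53%, and Trav7-5 was 6.08% in WT acute colitis against 1.82% to 3.55%. Some of these cells shared a pair. In App chronic colitis 41 had Trbv13-2 with Trav5-4, 39 of 39 with a single hashtag being of hashtag 5. There 28 had Trbv15 with Trav3-3, 25 of 26 being of hashtag 4. In App acute colitis 21 had Trav8d-2 with Trbv3, 17 of 17 being of hashtag 7. In WT food allergy 10 had Trbv19 with Trav12-1, 7 of 7 being of hashtag 5, and 12 had Trbv31 with Trav8n-2, 9 of 9 being of hashtag 7.

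In Cd4-gated cells, Trbv17 was 8.70% in WT acute colitis against 0.481% to 1.83% elsewhere, and Trav3-3 was 6.16% in App control against 1.23% to 2.47%. Trav12-2 was 3.77% in WT chronic colitis against 1.60% to 2.47%, and Trav8d-2 was 1.60% in App chronic colitis against 0% to 0.585%. The probability that a pair of Cd4-gated cells shares its Trav gene was 5.84% in App food allergy against 1.79% to 3.40%. Trav11 was assigned to a single cell in each gate, which gave 1.23% in Cd4-gated cells of WT food allergy and 0.676% in Cd8b1-gated cells of WT acute colitis, against 0% in the other libraries, and a single cell against 0 meets the criterion by construction.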

How the results depend on the processing

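No result changed sign in the alternatives run. Fold changes of the V genes named kept their call in 311 of 387 alternatives and were no longer called in 76, which concern 14 of 25 results. Mean usage moved by less than the spread between libraries in 383 of 384. With V genes taken from at least 2 UMIs, a Trav gene was assigned in 38.7% of Cd4-gated and 39.2% of Cd8b1-gated cells and a Trbv gene in 73.3% and 75.5%. Between Cd8b1-gated and Cd4-gated cells, 11 of 31 V genes tested were called without the library block in place of 18 of 65, and 14 to 19 when a library was left out.

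The Foxp3 comparison gave 2 called V genes with the DESeq2 Wald test, 4 with no filter, 2 in cells with 1 hashtag and 0 with partner libraries summed, in place of 1, and 0 to 1 with a library left out. The Ccl5 comparison gave 8 with no filter in place of 5, and 3 to 6 with a library left out (3 without WT control, WT food allergy or App chronic colitis). App against WT in Cd4-gated cells gave 9 with no filter in place of 0, and 0 to 1 with a library left out (1 without WT control or App control). In Cd8b1-gated cells it gave 2 with the DESeq2 Wald test or no filter, and 0 in cells with 1 hashtag, by families and with partner libraries summed, in place of 1, and 0 to 1 with a library left out. In Cd4-gated cells, acute and chronic colitis each gave 1 with no filter in place of 0, and acute colitis 0 to 1 with a library left out (1 without App control or App acute colitis). Food allergy in Cd8b1-gated cells gave 1 with the DESeq2 Wald test and 1 with no filter. The causes were not tested. No paired analysis was possible because the labels give each condition 1 library and no number that links conditions. Hashtag numbers, read from the counts, recur between partner libraries, and sums per hashtag group were tested between gates only, with the group as block. At this depth 98 V genes had too few UMIs to test between gates.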
